A study of Caenorhabditis elegans with 2 samples.

Results

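The mir-51 family of Caenorhabditis elegans consists of 6 microRNA genes, cel-mir-51 to cel-mir-56, and the regions listed at these genes by a ChIP-seq experiment on the tagged protein ZK546.5 are described here. The 6 genes were chosen by name, from 261 microRNA genes annotated on the nuclear chromosomes, after earlier results of the same data had shown listed regions at them. The regions at each gene were selected on the distance of the summit from the gene start, on the signal value and its rank, and on how the replicates ranked them. These quantities are therefore given as descriptions, without tests. Cel-mir-51, cel-mir-52 and cel-mir-53 lie on chromosome IV, and cel-mir-54, cel-mir-55 and cel-mir-56 form a cluster on chromosome X.

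Chromatin was taken from whole L4 larvae, the last larval stage, of mixed sex and from strain OP231, whose genotype is given as unc-119(ed3) III with the integrated transgene wgIs231. The transgene adds a C-terminal tag of green fluorescent protein and FLAG to ZK546.5, so all the worms carried the same tag and the same unc-119 allele. The 2 samples form 1 group, with biological replicates 1 and 2. The labels name a control experiment, which is not analysed here. Values from whole animals do not tell in which cells a region was bound, and with 1 group no comparison between conditions exists.

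MicroRNAs are short RNAs that lead Argonaute proteins to messenger RNAs, chiefly by pairing of the seed, the bases just after the first base at the 5′ end. Members of a microRNA family share the seed and can therefore act on the same messages. In C. elegans the mir-51 family is broadly expressed and its members act redundantly; worms that lack all of them die as embryos, and the pharynx of family mutants can detach from the mouth, with the cadherin gene cdh-3 as a known target.

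The mature RNAs that carry the family seed are shown because the seed is what defines the family. Each is written 5′ to 3′ from the RefSeq annotation of WBcel235, with bases 2 to 8 in capitals.
cel-mir-51: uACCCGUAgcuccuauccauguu
cel-mir-52: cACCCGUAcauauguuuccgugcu
cel-mir-53: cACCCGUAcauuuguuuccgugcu
cel-mir-54: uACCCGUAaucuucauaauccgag
cel-mir-55: uACCCGUAuaaguuucugcugag
cel-mir-56: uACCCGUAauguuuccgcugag
All 6 shared the seed ACCCGUA, and no other among the 458 mature arms in the RefSeq annotation had it. The first base was c in cel-mir-52 and cel-mir-53 and u in the other members. The seed lay on the 5p arm of the hairpin in the chromosome IV genes and on the 3p arm in the X genes. Cel-mir-52 and cel-mir-53 were identical at 23 of 24 positions counted from the 5′ end. Every other pair was identical at 9 to 14 positions.

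Members with nearly the same mature RNA differed in the regions listed at them. Cel-mir-52 lay under a leading region, and cel-mir-53 did not. The leading region at cel-mir-52 spanned chrIV:14033934-14034233 on ce11 and is shown because the whole hairpin lies inside it. It is written on the gene's strand, with the 100 bases of the hairpin in capitals.
cel-mir-52 region: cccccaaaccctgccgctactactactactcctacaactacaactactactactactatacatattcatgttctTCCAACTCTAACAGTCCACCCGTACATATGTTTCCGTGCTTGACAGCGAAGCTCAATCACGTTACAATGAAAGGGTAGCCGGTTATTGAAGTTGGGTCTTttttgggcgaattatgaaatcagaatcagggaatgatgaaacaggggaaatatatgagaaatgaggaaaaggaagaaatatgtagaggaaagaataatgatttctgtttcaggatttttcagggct
The leading region at the X cluster spanned chrX:13144958-13145257. It is shown on the strand of the cluster, the minus strand, with the 99 bases of the cel-mir-54 hairpin in capitals; the hairpins of cel-mir-55 and cel-mir-56 lie beyond its 3′ end.
cel-mir-54 region: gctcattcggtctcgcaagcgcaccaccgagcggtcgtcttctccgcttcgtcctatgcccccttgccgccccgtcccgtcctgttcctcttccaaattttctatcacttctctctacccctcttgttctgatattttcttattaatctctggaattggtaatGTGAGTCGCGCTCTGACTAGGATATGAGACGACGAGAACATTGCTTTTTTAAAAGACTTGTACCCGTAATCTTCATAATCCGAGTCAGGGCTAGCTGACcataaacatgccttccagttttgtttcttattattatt
In replicate 2 the strongest region at the cluster was a different one, past the other end of the 3 genes. The 300 bases around its summit, chrX:13144343-13144642 on the same strand, hold no hairpin base.
cel-mir-56 downstream region: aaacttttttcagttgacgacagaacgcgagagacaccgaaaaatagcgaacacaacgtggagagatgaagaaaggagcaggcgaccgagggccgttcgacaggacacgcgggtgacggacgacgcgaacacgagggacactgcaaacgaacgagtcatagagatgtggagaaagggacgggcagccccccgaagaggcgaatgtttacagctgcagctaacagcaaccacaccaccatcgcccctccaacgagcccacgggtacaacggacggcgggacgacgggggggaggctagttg
All 271 overlapping stretches of 30 bases in each of these windows occurred once in the genome, and the same was true of the windows at cel-mir-51 and cel-mir-53. GC content was 40.0% in the cel-mir-52 window, 46.0% in the cel-mir-54 window and 58.3% in the downstream window, against 45.7% at cel-mir-51 and 33.0% at cel-mir-53.

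In the annotation, cel-mir-51 (WBGene00003279) occupies chrIV:11026013-11026112 on the minus strand, and cel-mir-53 (WBGene00003281) occupies chrIV:11027593-11027691 on the same strand, with 1480 bp between their hairpins. The nearest protein-coding start to both is that of hrg-5, 3316 bp from cel-mir-51 and 1737 bp from cel-mir-53. Cel-mir-52 (WBGene00003280) is at chrIV:14034008-14034107 on the plus strand, 3007896 bp from the start of cel-mir-51, and its nearest protein-coding start is that of Y37A1B.7, 9772 bp away. None of the 3 chromosome IV genes lies inside a protein-coding gene. The X cluster runs from cel-mir-54 (WBGene00003282, chrX:13144996-13145094) through cel-mir-55 (WBGene00003283, chrX:13144827-13144924) to cel-mir-56 (WBGene00003284, chrX:13144691-13144787), all on the minus strand. The gaps between these hairpins are 71 and 39 bp. The cluster lies inside F09A5.3, a protein-coding gene of the opposite strand, whose start is 3493 bp from that of cel-mir-54. A further annotated microRNA, cel-mir-55b, lies within the cluster on the opposite strand and is not a member of the family.

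Deposited lists on assembly ce11 were read. The list from both replicates pooled and each replicate's own list hold 30000 regions of peaks and background. The optimal IDR list holds 92 regions. It is named for a threshold on the irreproducible discovery rate (IDR), which scores whether regions rank high in both replicates. All 92 were also the 92 regions with the highest signal in the pooled list. A place in the IDR list does not by itself show a high rank in both replicates. Of the 92, 7 had a summit outside the first 1000 regions of at least 1 replicate. The signal values are those of the authors' peak caller; they ran from 9.83 to 1072 in the pooled list with a median of 12.7, and no source used here gives their scale. A rank of 1 marks the highest signal in a list. Library depth is unknown, and signal values of different lists are set side by side without being on a shown common scale.

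At cel-mir-52, all 3 lists placed a strong region over the hairpin. In the pooled list its signal was 51.5, which was 4.04 times the list median, at rank 69. Replicate 1 gave it a signal of 36.8 at rank 54, and replicate 2 a signal of 15.6 at rank 176. The summit lay 76 bp downstream of the gene start in the pooled list, 80 bp in replicate 1 and 49 bp in replicate 2, inside the hairpin each time. Both replicates thus ranked the region in their top 1000, replicate 2 lower than replicate 1. A non-coding RNA gene of the opposite strand was also annotated over these summits. No other summit of the pooled list lay within 1 kb of the start; the next was 1655 bp away.

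At the X cluster, the pooled list and replicate 1 placed the leading region at the cel-mir-54 end, and replicate 2 did not. The pooled signal was 38.5, or 3.02 times the median, at rank 83, with the summit 14 bp upstream of the start of cel-mir-54. That summit was 184 bp upstream of cel-mir-55 and 321 bp upstream of cel-mir-56. In replicate 1 the signal was 26.0 at rank 86, with the summit 16 bp upstream of cel-mir-54. In replicate 2 the region at this end had a signal of 7.11 at rank 10941, with its summit 50 bp upstream. The rank of this end was thus high in replicate 1 and far down the list in replicate 2.

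The strongest region of replicate 2 at the cluster had a signal of 14.6 at rank 282. Its summit lay 601 bp downstream of the cel-mir-54 start and 198 bp past the end of the cel-mir-56 hairpin. The pooled list held a weaker region there, with a signal of 19.1 at rank 2223, and replicate 1 listed none at that end. A further region of replicate 2, with a signal of 6.03 at rank 17385, had its summit inside the cel-mir-56 hairpin, 86 bp from the start of that gene. The pooled summit at cel-mir-54 and the replicate 2 summit past cel-mir-56 both lay in introns of F09A5.3. The 3 X genes share these regions, so they give 1 locus, not 3 independent values.

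At cel-mir-51 and cel-mir-53, regions were listed without a high rank. At cel-mir-51 the pooled signal was 18.0 at rank 3125, with the summit 60 bp downstream of the start and inside the hairpin. Replicate 1 had its summit at the same base, with a signal of 8.89 at rank 15449, just below the list median. In replicate 2 the signal was 9.92 at rank 2911, with the summit 100 bp downstream, 1 bp past the hairpin. A second region of replicate 2, 421 bp upstream of the start, had a signal of 4.72 at rank 28843.

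At cel-mir-53 the pooled signal was 12.4 at rank 16380, below the list median, with the summit 151 bp downstream of the start and 53 bp past the hairpin. Replicate 1 listed no region within 1 kb of this gene. Replicate 2 gave a signal of 8.94 at rank 4678, with the summit 107 bp downstream. Within 1 kb, neither gene had a region among the first 1000 of any of these lists, and both were placed better in replicate 2 than in replicate 1, unlike cel-mir-52.

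**Figure D1:**
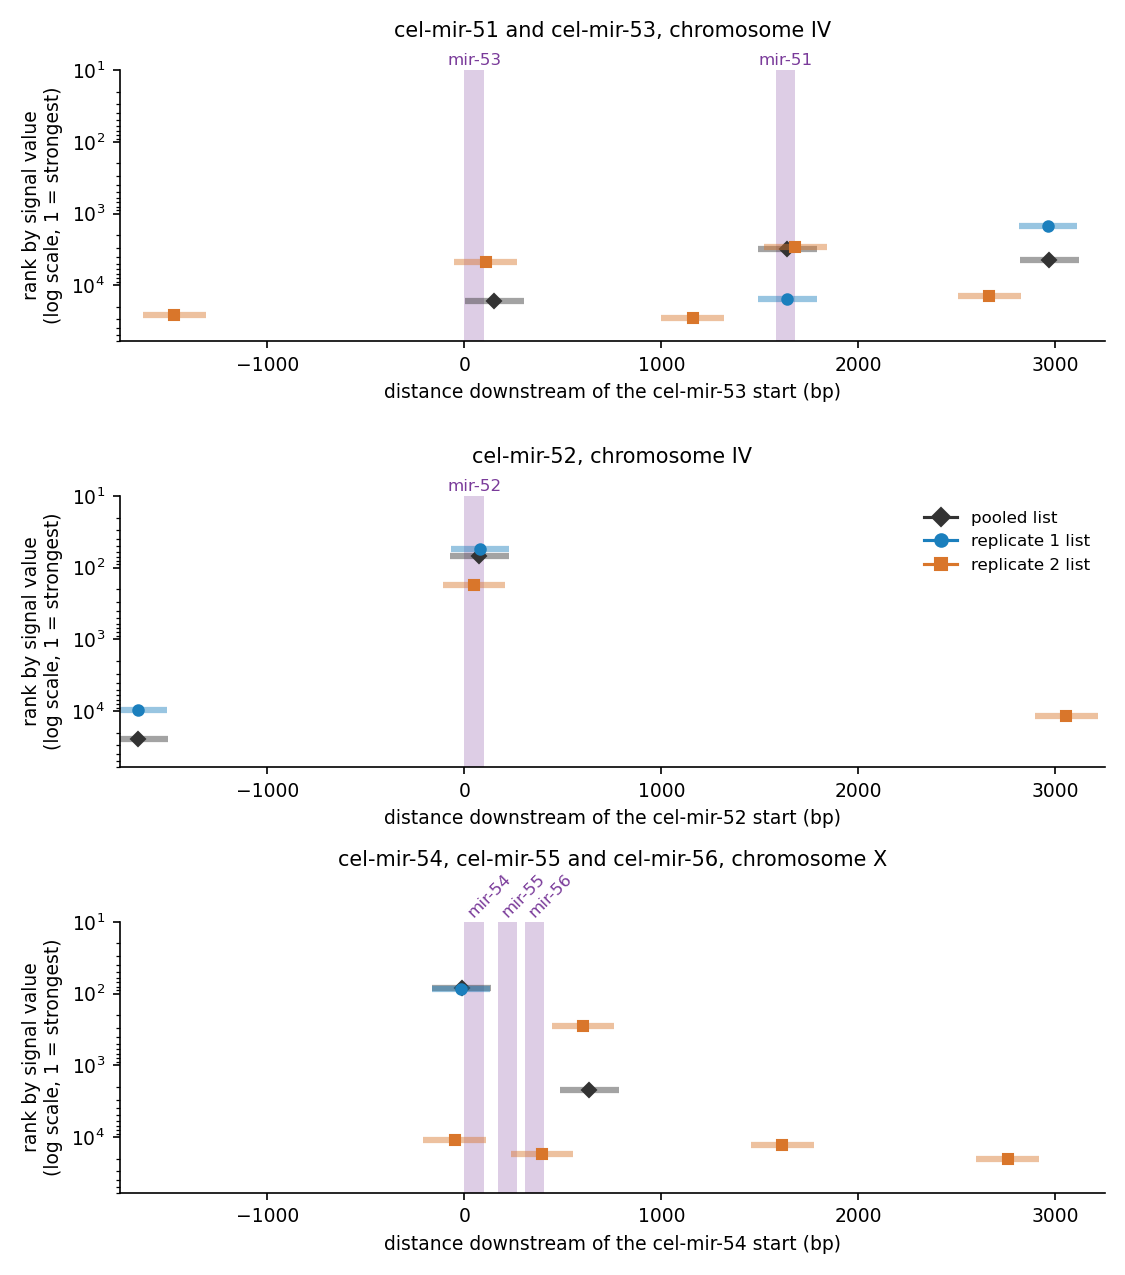
Listed regions around the 6 genes, by distance in bp downstream of the start of cel-mir-53, cel-mir-52 or cel-mir-54 (horizontal) and rank by signal value on a log axis with 1 at the top (vertical); bars span the regions, markers show summits, colours give the list and purple bands the hairpins. The 3 lists coincide over cel-mir-52, whereas at the X cluster replicate 2 has rank 282 downstream of cel-mir-56 and rank 10941 at the cel-mir-54 end.

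The map of regions around the genes shows where the lists coincide and where they part. On chromosome IV the strongest summits of the lists lay close together, spanning 31 bp at cel-mir-52, 40 bp at cel-mir-51 and, in the 2 lists that had a region, 44 bp at cel-mir-53. On X they spanned 617 bp. No strongest summit was near the limit of 1 kb, the farthest being the replicate 2 summit at 601 bp from cel-mir-54. The nearest summits left out by the limit were replicate 2 summits, 1086 bp from cel-mir-51 and 1158 bp from cel-mir-53.

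Counted over the family, 6 of 6 genes had a pooled summit within 1 kb of the start. The background share was 54% of the 261 microRNA genes and 49.1% of the 19973 protein-coding genes on the nuclear chromosomes. In replicate 1 the count was 5 of 6, against 53.6% of microRNA genes and 49% of protein-coding genes. In replicate 2 it was 6 of 6, against 46.7% and 49.9%. A listed summit near the start was thus common among genes of both kinds, and its presence alone sets no member apart.

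An IDR summit lay within 1 kb of 4 members: cel-mir-52, through its own peak, and cel-mir-54, cel-mir-55 and cel-mir-56, through the shared one. Among all microRNA genes the share was 2.68%, or 7 genes, and among protein-coding genes 0.466%. The 4 members are 4 of those 7 genes, and the other 3 are cel-mir-354, cel-mir-5549 and cel-mir-55b. When the 92 strongest regions of replicate 1 alone were taken instead, the count was again 4; with the 92 strongest of replicate 2 alone it was 0. Since the genes were chosen with these peaks known, nothing is read from the difference to the background.

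The strongest region within 1 kb was among the first 1000 of both replicate lists for the same 4 members. This was so for 3.07% of microRNA genes, 8 in all, and for 0.556% of protein-coding genes. For the X genes the replicates meet the limit with different regions. When a replicate region had to overlap the leading pooled region, an alternative chosen after seeing the data, 1 member was left, cel-mir-52.

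Overlap with the hairpin itself divided the family differently from distance to the start. Regions of the pooled list overlapped the hairpins of 4 members, all 3 on chromosome IV and cel-mir-54 on X, against 12.6% of all microRNA genes. In replicate 1 they overlapped 3, cel-mir-51, cel-mir-52 and cel-mir-54, against 12.3%. In replicate 2 they overlapped all 6, against 13%. On X the overlapping replicate 2 regions ranked low. The region at cel-mir-54 was at rank 10941. The hairpins of cel-mir-55 and cel-mir-56 were overlapped by 1 shared region at rank 17385, whose signal of 6.03 was below the list median. IDR peaks overlapped the hairpins of cel-mir-52 and cel-mir-54, against 1.15% of microRNA genes, or 3 genes, the other being cel-mir-5549. The genes were chosen with listed regions at them known, so nothing is read from the difference to these shares.

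**Figure D2:**
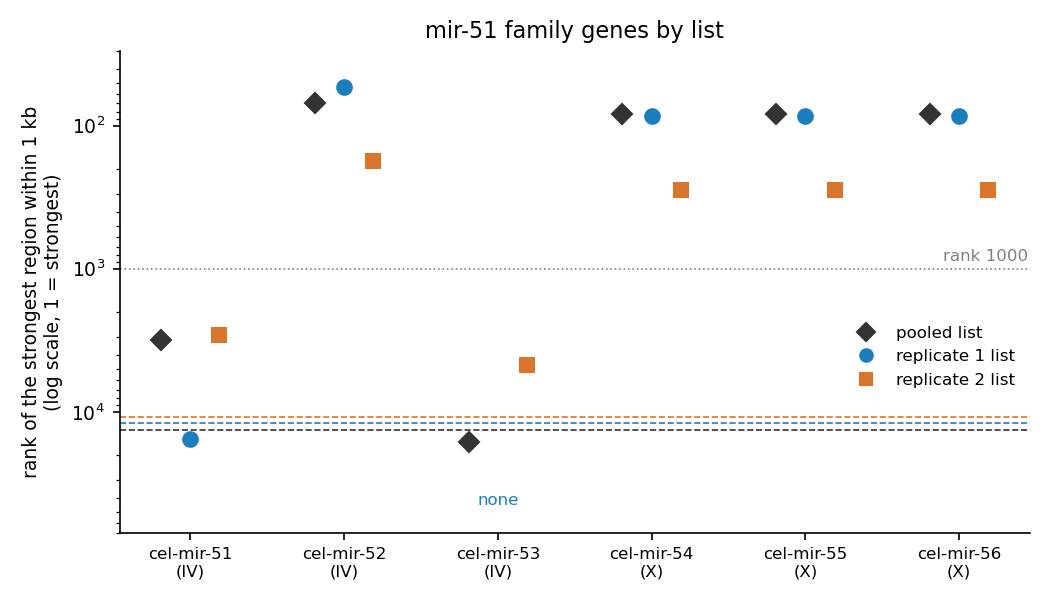
Rank of the strongest region within 1 kb of each family gene in the pooled and both replicate lists, on a log axis with 1 as the strongest; dashed lines give each list's median rank over all microRNA genes that have a region, and the dotted line rank 1000. Cel-mir-52 and the 3 X genes lie between ranks 54 and 282, and cel-mir-51 and cel-mir-53 between 2911 and 16380. For the X genes the replicate 2 marker is of another region, past cel-mir-56, than the markers of the other lists.

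Set side by side, the highest pooled signal was 51.5 on chromosome IV and 38.5 on X. The ranks by gene and list show that chromosome IV held both the best and the worst placed members, whereas the X genes had equal values because they share their regions. The order of the members by pooled rank was cel-mir-52, then the X genes together, then cel-mir-51 and cel-mir-53. Replicate 1 gave the same order, with cel-mir-53 unlisted. By the strongest region within 1 kb, replicate 2 gave it as well, at ranks 176, 282, 2911 and 4678. There the X rank of 282 belongs to the region past cel-mir-56, not to the one that led in the other lists. The replicate 2 region at the cel-mir-54 end ranked 10941, behind those at cel-mir-51 and cel-mir-53.

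Column 9 of the lists, a second score of the authors' processing, was read beside the signal. In replicate 2 both the cel-mir-52 region and the region past cel-mir-56 had the highest score of that list, a value of 1.15 that 331 regions shared. In the pooled list the cel-mir-54 peak was 21st by this score and the cel-mir-52 peak 39th, the reverse of their order by signal. The cel-mir-51 region was at 29354 of 30000 by score, with a rank by signal of 3125. Such a low place by score was not particular to cel-mir-51. The pooled region past cel-mir-56, at rank 2223 by signal, was at 29785 by score. A weak pooled region 2644 bp upstream of cel-mir-52, at rank 26946 by signal, was at 3412 by score.

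Among the IDR peaks the 2 at the family were in the weaker part of the set. The signal of the IDR peaks ran from 36.1 to 1072 with a median of 70.6. By signal, the cel-mir-52 peak was number 8 of the 11 on chromosome IV, where the median was 60.3, and the cel-mir-54 peak was number 16 of the 19 on X, where it was 52.9.

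The cel-mir-52 peak lay far from protein-coding starts. Its summit was 9696 bp from the nearest protein-coding start, the farthest of the 54 autosomal peaks, whose median was 227 bp. Of those 54, 5 were over 1000 bp away. The cel-mir-54 peak was 3507 bp from the start of F09A5.3, while 14 of the 19 X peaks were over 1000 bp away and their median was 2497 bp.

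The replicate ranks at the summit also differed between the 2 peaks. The cel-mir-52 peak was inside a region of rank 54 in replicate 1 and 176 in replicate 2. The cel-mir-54 peak was inside regions of rank 86 and 10941. Of the 92 IDR peaks, 7 had a summit outside the first 1000 regions of at least 1 replicate, 2 of them on X. When any replicate region within 1 kb was allowed, 4 remained outside and the cel-mir-54 peak was no longer among them, because of the region downstream of cel-mir-56.

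**Figure D3:**
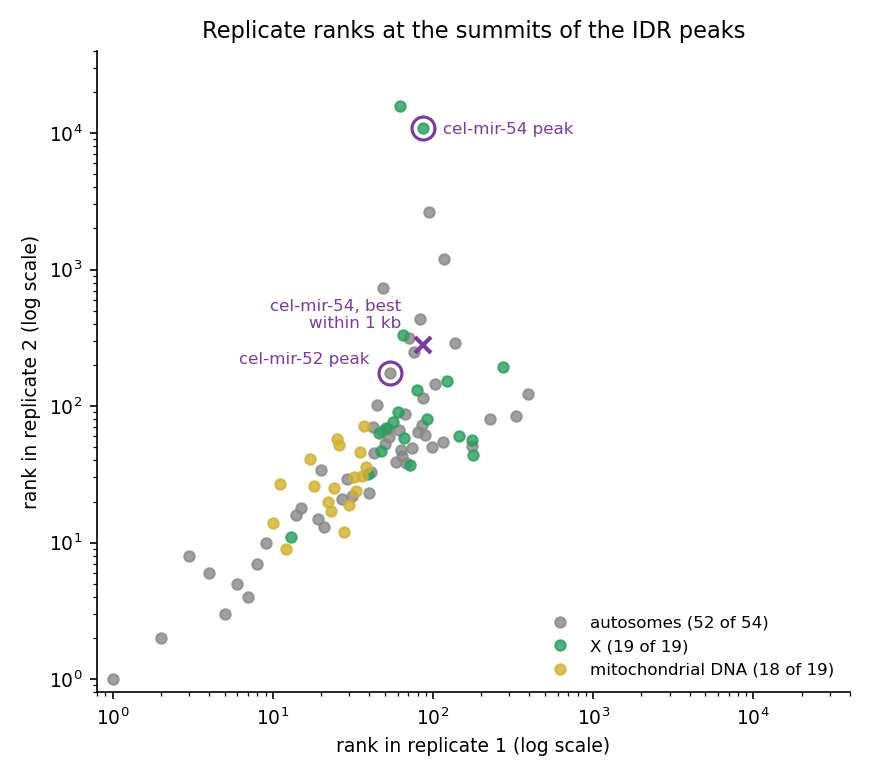
Rank in replicate 1 (horizontal) and in replicate 2 (vertical), both on log axes, of the replicate regions that hold the summits of the IDR peaks. The cel-mir-52 peak, at 54 and 176, lies with most other peaks, and the cel-mir-54 peak, at 86 and 10941, is far from them in replicate 2; the cross marks the strongest replicate regions within 1 kb of cel-mir-54, at 86 and 282.

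Against the other microRNA genes, the leading family regions stood just behind those at cel-mir-354 and cel-mir-5549. Cel-mir-354 had a pooled signal of 243 at rank 16, with the summit 865 bp upstream of its start and 144 bp from the start of the protein-coding gene ekl-4. Cel-mir-5549 had 157 at rank 24, with the summit 1 bp upstream of its start and 167 bp from the start of rfc-4, which encodes a subunit of the clamp loader of DNA replication. Both of these microRNA regions were thus close to a protein-coding start, and those at cel-mir-52 and cel-mir-54 were not. By pooled signal cel-mir-52 was number 3 among the 141 microRNA genes with a region, and the 3 X genes tied with cel-mir-55b for the next place. Cel-mir-51 was number 23 and cel-mir-53 number 82. The median pooled rank was 13458 over the 141 genes, 14086 over the 135 outside the family, 10318 for microRNA genes on chromosome IV and 17215 for those on X.

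**Figure D4:**
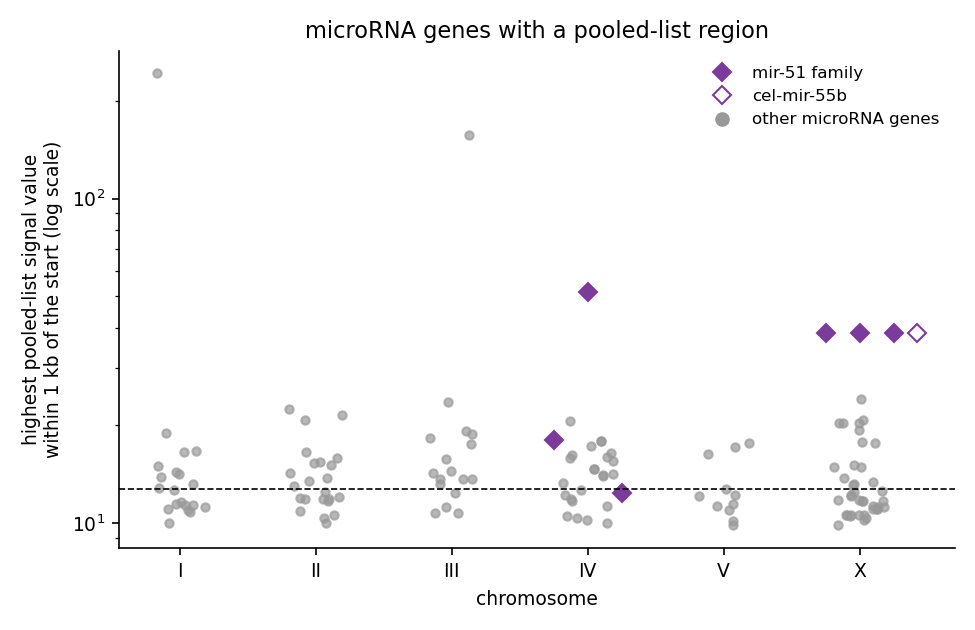
Highest pooled signal value within 1 kb of the start of each of the 141 microRNA genes that have a region, on a log axis, by chromosome; the dashed line is the pooled-list median of 12.7. Cel-mir-52 at 51.5 and the X genes at 38.5 are above all other microRNA genes except 2, at 243 and 157, while cel-mir-51 at 18.0 and cel-mir-53 at 12.4 lie among the rest; cel-mir-55b shares the X region.

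The genes most like the leading members were found by the summed absolute log10 difference in rank over the pooled and both replicate lists, among 67 microRNA genes outside the family with a region in all 3. Cel-mir-55b was left out of this comparison, since it shares the X regions and therefore has the same ranks as cel-mir-54, 83, 86 and 282. Among the 67, the smallest sums to cel-mir-52 were those of cel-mir-5549 at 1.60, cel-mir-354 at 2.16, cel-mir-4929 at 2.49, mir-2214 at 3.03 and cel-mir-80 at 3.63. The same 5 of the 67 genes were nearest to cel-mir-54, in another order, with cel-mir-4929 first at 2.00. The ranks used for cel-mir-54 join different regions, since 282 is that of the region past cel-mir-56. At the cel-mir-54 end replicate 2 had rank 10941, and sums with that rank were not computed. Cel-mir-4929 ranked 1061 in the pooled list, 434 in replicate 1 and 437 in replicate 2, the only gene outside the IDR set among the 8 microRNA genes in the first 1000 of both replicates. Its summits differed between the lists. They lay 134 bp downstream of its start in replicate 1, 512 bp downstream in replicate 2 and 35 bp upstream in the pooled list.

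Other microRNA families were read for comparison. Of 39 genes in 9 lists of other families and single microRNAs, 24 had a pooled summit within 1 kb, against the 54% of all microRNA genes. An IDR summit was found at 0 of them, against 2.68%, or 7 genes. The strongest region was in the first 1000 of both replicates for 0 of them, against 3.07%, or 8 genes. Those 7 and 8 genes each include 4 members of the mir-51 family, so nothing is read from the difference to these shares. No test of these counts was made. Some of the 39 genes lie close together and share a region, so these are counts of genes, not of separate loci. Cel-mir-80, of the mir-58 family, had the best pooled rank of these genes, 556, with a signal of 23.6, behind cel-mir-52 and the X genes and ahead of cel-mir-51 and cel-mir-53. All 5 genes of the let-7 family list had a pooled summit, with a best rank of 5371; cel-let-7 itself was at 26651. Of the 8 genes of the mir-35 family, which is needed in the embryo, 1 had one, at rank 18693.

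Genes for microRNA processing and action were read in the same way. Of 13, 10 had a pooled summit within 1 kb, against 49.1% of all protein-coding genes, and 1 had an IDR summit, against 0.466%. The latter was vig-1, which encodes a protein of the RNA-induced silencing complex. Its pooled signal was 267 at rank 14, and its ranks in the replicates were 14 and 16. The strongest region at pash-1, which encodes the RNA-binding partner of the nuclease Drosha, ranked 755 in replicate 1 and 926 in replicate 2 but 4932 in the pooled list. No listed region lay within 1 kb of cdh-3. Of 6 genes known as targets of other microRNAs, most of which time larval development, 4 had a pooled summit and 0 an IDR summit, against the same shares.

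Short sequence words were counted within 150 bp of the leading summits on both strands. The words were ACCGTA and CCTGCA and ATCTAA, seen earlier at the IDR peaks, and GCGCAGG, which lies inside the motif of the sites on X where the dosage compensation complex is recruited. The windows at cel-mir-51, cel-mir-52, cel-mir-53 and cel-mir-54 and the window past cel-mir-56 held 0 matches to any of them. ACCGTA occurred in 41.1% of the 73 nuclear IDR windows and in 7.91% of all 29979 nuclear pooled windows. CCTGCA occurred in 37.0% and 5.88%, and ATCTAA in 32.9% and 16.4%. These words were chosen because they had been seen at the IDR peaks, so nothing is read from the difference between the shares. GCGCAGG occurred in 16.4% of the IDR windows and in 0.627% of the pooled ones. Both shares are over all nuclear chromosomes, and the share among windows on X alone was not counted.

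The cel-mir-52 window contained a tandem run of the unit ACT of 15 bp, beginning 108 bp before the summit and outside the hairpin. Runs of a unit of 3 bases that long occurred in 0.467% of the pooled windows and in 1 of the 73 IDR windows, which is this one. The other 4 windows at the family had none. Its part in the result was not tested.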

How the data were processed

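Per the labels, the 2 samples are ChIP-seq libraries of 1 strain. Per the deposited README text, the authors made each region list from ChIP alignments with a control alignment, pooled or per replicate, and derived the IDR set from these lists. The aligner, the caller of the peaks and the threshold for IDR were not given in the sources used here. Of the values, the authors' signal value (column 7) and score (column 9) were used as deposited, for ranks inside each list; the signal was also set against its list's median and given side by side between lists; 29639 pooled scores were below 0. Lists on assembly ce10 were not used, and no column lacked a mapping to a sample or a pool.

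Gene positions came from Ensembl release 115 (WBcel235, the assembly called ce11), and mature RNAs, genome sequence and the name of cel-let-7 (matched by WormBase ID) from RefSeq of the same assembly. A region belonged to a gene when its summit lay within 1000 bp of the gene start, and regions were ranked by signal. Counts were read with Python 3.11.15, pandas 2.3.3 and numpy 2.4.6, and the scripts were tested on simulated data. The members and gene lists were chosen with earlier results of these data known, so no test was made. Named genes were the members and cel-mir-55b, the nearest protein-coding start and genes around their summits, listed genes with an IDR summit or a pooled rank within 1000, and the 5 microRNA genes most like cel-mir-52 or cel-mir-54; pash-1, cel-mir-4929, cel-let-7 and the best ranks of the let-7 and mir-35 lists, were added after their values were seen. Alternatives were other windows, gene midpoints, overlap with the gene, single replicates and a stricter IDR set.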

Additional observations from a re-analysis of the deposited data

How the results depend on the processing

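Of 32 alternatives to the 5 main values, 25 left the value the same and 7 moved it. A count was called the same within 1.5 times the main count, and a signal value within 1 SD of the main value. The SD was that of the same 2 replicate values that were compared, so it widens as they differ. The other windows and the gene midpoint gave the same highest signals, because the same regions led. The 25 is therefore no measure of how firm the values are. The pooled count was 4 to 6 of 6 genes under every alternative run. The count with an IDR summit within 1 kb, 4, was 2 when a peak had to overlap the hairpin and 0 when only the 46 strongest IDR peaks were kept. Leaving out each replicate in turn gave 0 to 4, with 0 without replicate 1. The count in the first 1000 of both replicates, 4, was 1 when replicate regions had to overlap the leading pooled region. The highest signal at a chromosome IV gene was 51.52 in the pooled list and 15.6 to 36.75 when 1 replicate was left out. At an X gene it was 38.49 against 14.61 to 25.95. On X these values belong to different regions. The 14.61 was that of the replicate 2 region past cel-mir-56, and 38.49 and 25.95 were at the cel-mir-54 end, where replicate 2 had 7.11. These lists are not on a shown common scale. The cause of these differences was not tested.

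No paired analysis was possible because the samples form a single group and no test was made. The depth of the libraries is unknown, so no counting error stands beside a signal value. With 2 replicates, and with 1 locus behind the 3 X genes, the values carry no estimate of the spread between animals.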

Other observations

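Beyond 1 kb of the X cluster, the pooled list held a region 4135 bp upstream of the cel-mir-54 start, with a signal of 24.3 at rank 447. It ranked 307 in replicate 1, with a signal of 18.8, and 26286 in replicate 2, with a signal of 4.97. The ranks of the replicates thus parted there in the same direction as at the cel-mir-54 end of the cluster, at 86 and 10941. Another pooled region, 4866 bp upstream of cel-mir-54, ranked 976 in the pooled list, 1651 in replicate 1 and, for the nearest region of replicate 2, 12490.

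Of the 73 nuclear IDR peaks, those on X included another peak with its summit at 11606231, whose ranks in the replicates were 62 and 15665. It was 6456 in replicate 2 when any region within 1 kb was allowed. It was chosen here after its values were seen.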
